A study of Mus musculus with 6 samples.

Results

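Basement membrane genes were compared between control and blebbistatin-treated mouse submandibular glands of the ICR strain taken at embryonic day 13 (E13). The 35 genes were chosen by symbol from the 24067 genes of the deposited table and cover the laminin chains, the type IV collagen chains, the linkers that join both networks, further matrix proteins and the receptors Dag1 and Bcam. All 35 were found, and 29 had a mean of at least 1 FPKM over the 6 libraries and were tested. FPKM is a fragment count scaled to transcript length and to the size of the library, so that it can be compared between genes of different length. Each group had 3 libraries, and strain, tissue and age were the same in both. Blebbistatin is a small molecule that inhibits the ATPase of myosin II, the motor of non-muscle actomyosin. The sources used here give neither its dose, the time of treatment and the vehicle, nor the number of glands per library. The title of the series names epithelial buds and the tissue label names the gland. In every library the 11 epithelial markers given below summed to at least 1557 FPKM and the 11 mesenchymal markers to at most 32.7. By these markers the libraries were mainly epithelial. Whether replicates were separate cultures or litters is not stated in the labels. The p-values set the difference between groups against the spread of these libraries within a group, which may be technical.

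A basement membrane is the thin sheet of matrix under an epithelium. Laminins are trimers of an alpha, a beta and a gamma chain that polymerize on cell surfaces, and type IV collagen forms a second, covalently linked network. Nidogens and the heparan sulfate proteoglycans perlecan and agrin connect both, and cells hold the sheet through integrins, dystroglycan and the Lutheran glycoprotein BCAM. In the branching salivary gland the sheet surrounds each end bud, and laminin signalling is known to be needed for bud growth and cleft formation.

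None of the 29 tested genes passed an adjusted p of 0.05 (limma, adjusted over all 11540 genes tested, of which 0.078% passed). At an unadjusted p under 0.05 there were 8 of the 29 (27.6%), beside 9.36% of all genes tested. Of these 8, 4 had higher means with blebbistatin (Smoc2, Bcam, Fras1 and Col4a5), beside 4.46% of all genes tested, and 4 had lower means (Npnt, Pxdn, Lama4 and Lama1), beside 4.9%. When 1 library was left out, the 29 held between 4 such genes (13.8%, beside 9.5% of all genes, without control replicate 2) and 11 (37.9%, beside 10.8%, without control replicate 1). Without control replicate 3 there were 5 (17.2%, beside 8.01%). The groups did not overlap in 9 of the 29 (31.0%), beside 14.3% of all genes tested. The 5 with every treated library above every control were Smoc2, Bcam, Fras1, Col4a5 and Nid1, and 7.48% of all genes lay that way. The 4 with every treated library below every control were Npnt, Pxdn, Lama1 and Egfl6, and 6.8% of all genes lay that way. Directions were mixed, with 15 means higher and 14 lower, and the median of their log2 fold changes was 0.0039, beside 0.015 for all genes tested. Fold changes here are blebbistatin minus control on the log2(FPKM + 1) scale, which understates differences of genes with low values.

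From the steps between low FPKM values, each library held an estimated 29400000 to 35900000 fragments. At that depth Lama1, at about 2 FPKM, rested on an estimated 420 to 780 fragments per library, and Col4a1 on 45008 to 57237. The median transcript of the 35 genes was 6426 nt long, beside 2115 nt over all genes. All 11 markers of epithelium were tested. Their summed level ran from 1675 to 2033 FPKM in the controls and from 1557 to 1915 in the treated libraries. Sox10 was the only 1 of the 11 whose groups did not overlap (9.09%, beside 14.3% of all genes tested). It stood at 205.7 to 215.7 FPKM in the controls and 120.7 to 157.9 in the treated libraries (log2 fold change -0.57 ± 0.12, adjusted p = 0.126, limma). The 11 mesenchymal markers summed to 19.02 to 32.7 FPKM in the controls and 21.9 to 24.1 in the treated libraries. Postn, at 10.8 to 16.02 FPKM in the controls and 12.4 to 19.7 in the treated libraries, made up most of that sum except in control replicate 1. That library held the highest value of every mesenchymal marker but Postn, of which it held the lowest. Its Col3a1 was at 7.26 FPKM, against 0.806 to 2.18 in the other libraries, and its Lum at 1.93, against 0.178 to 0.581. Col1a1 was at most at 3.06 FPKM, in the same library. The 8 endothelial markers summed to 8.27 to 15.03 and 8.05 to 9.48 FPKM, nearly all of it Egfl7, with 7 of the 8 below 1 FPKM in every library. Of the 8, Pecam1 (at most 0.553 FPKM) and Tek (at most 0.375) were higher in every treated library, and Cdh5 (at most 0.0441) was listed at 0 in all of them. In bulk libraries such as these, fewer cells of a type and less RNA per cell cannot be told apart.

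Laminin alpha chains decide which receptors a laminin binds. Lama5, the alpha chain of most epithelial laminins in the embryo, was by far the most abundant. It stood at 51.9, 62.2 and 74.9 FPKM in control replicates 1 to 3 and at 87.8, 51.6 and 69.7 in blebbistatin replicates 1 to 3. Blebbistatin replicates 1 and 2 held the highest and the lowest value of all 6 libraries, so the groups overlapped fully (log2 fold change 0.13 ± 0.20, SE, adjusted p = 0.986, limma). The 95% confidence interval of the difference ran from -0.34 to 0.59.

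Lama4, a chain best known from vessels and nerves, was the second most abundant alpha chain in every library but blebbistatin replicate 1, where Lama3 exceeded it. Its level was 4.74, 8.26 and 7.68 FPKM in the controls and 2.99, 5.08 and 4.48 in the treated libraries. Control replicate 1 lay below blebbistatin replicate 2, and the other controls lay above every treated library. The log2 fold change was -0.60 ± 0.21 (adjusted p = 0.378, limma). The endothelial and glial markers were low in every library, as given above for endothelium, and their part in this difference was not tested. The 5 glial markers summed to 2.195 to 2.63 FPKM in the controls and 1.39 to 2.49 in the treated libraries. Among them S100b was lower in every treated library, at 0.541 to 0.998 against 0.228 to 0.273 FPKM, and the other 4 overlapped.

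Lama1, the alpha chain of early embryonic epithelia, had 1.98, 2.28 and 2.13 FPKM in the controls and 1.48, 1.69 and 1.78 in the treated libraries. All treated libraries lay below all controls, though by little (log2 fold change -0.24 ± 0.10, adjusted p = 0.525, limma). Lama3, the alpha chain of the laminin of hemidesmosomes, ranged from 2.47 to 3.84 FPKM over the 6 libraries, with overlapping groups. Lama2, the main chain of muscle, was at most at 0.173 FPKM and was not tested.

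As shares of the summed alpha chain FPKM, Lama5 made up 83.5%, 82.6% and 85.4% in the controls and 91.4%, 84.4% and 88.3% in the treated libraries. Lama4 made up 7.61%, 10.97% and 8.76% in the controls and 3.11%, 8.31% and 5.68% in the treated libraries. In both shares blebbistatin replicate 2 lay within the controls. The summed level itself overlapped between the groups, at 75.1 ± 12.7 FPKM in the controls and 78.8 ± 17.5 in the treated libraries (SD, n = 3).

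**Figure D1:**
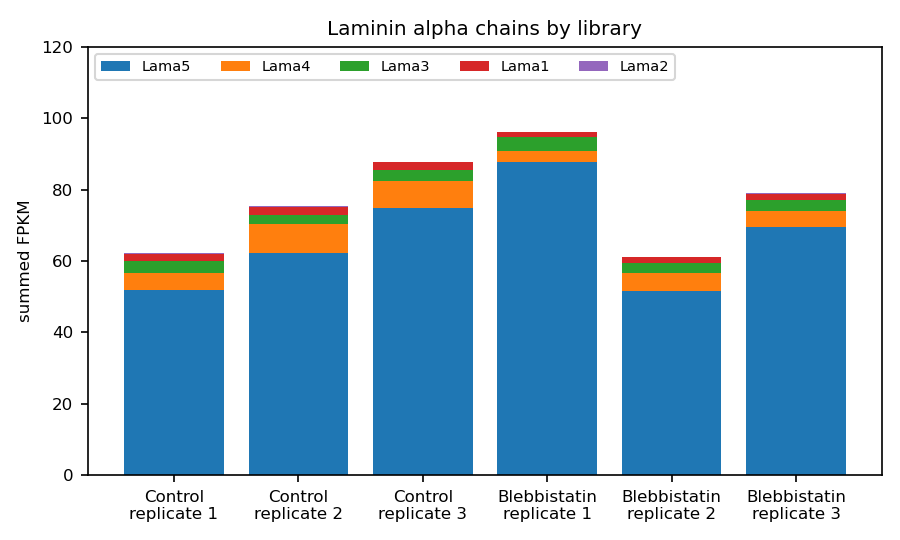
Stacked bars show the FPKM of the 5 laminin alpha chains in each of the 6 libraries, so that bar height is the summed level. Lama5 fills most of every bar, and the highest and the lowest bars, at 96.2 and 61.2 FPKM, both belong to treated libraries.

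Among beta chains, Lamb1, the partner of gamma 1 in most embryonic laminins, had 78.4, 94.5 and 92.7 FPKM in the controls and 101.3, 91.6 and 98.5 in the treated libraries. The groups overlapped (log2 fold change 0.14 ± 0.10, adjusted p = 0.861, limma). Lamb2, a beta chain that can replace beta 1, had 22.02, 24.5 and 32.01 FPKM in the controls and 23.4, 16.5 and 21.2 in the treated libraries. Only blebbistatin replicate 1 reached into the control range (log2 fold change -0.34 ± 0.16, adjusted p = 0.611), and without control replicate 3 the log2 fold change was -0.19. Lamb3, the beta chain of hemidesmosomal laminin, had 17.1, 13.1 and 13.5 FPKM in the controls and 24.6, 17.8 and 15.4 in the treated libraries. Here blebbistatin replicate 3 lay below control replicate 1 (log2 fold change 0.36 ± 0.17, adjusted p = 0.593), and without blebbistatin replicate 1 the log2 fold change was 0.18. Lamb2 thus made up 18.7%, 18.6% and 23.2% of the summed beta chain FPKM in the controls and 15.7%, 13.1% and 15.7% in the treated libraries, where the groups did not overlap. The share of Lamb3 was 11.4% ± 2.70 and 13.98% ± 2.54 (SD, n = 3), with overlap.

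Lamc1, the gamma chain of most laminins, had 89.2, 122.4 and 107.5 FPKM in the controls and 95.6, 101.3 and 102.1 in the treated libraries. The treated libraries lay within the range of the controls (log2 fold change -0.08 ± 0.12, adjusted p = 0.986, limma, 95% confidence interval -0.36 to 0.20). Lamc3 was at most at 0.0581 FPKM. Of the 8 laminin chains tested, 4 had higher and 4 had lower means. Their median log2 fold change was 0.00023, and in 1 (Lama1, 12.5% of the 8) the groups did not overlap, beside 14.3% of all genes tested.

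**Figure D2:**
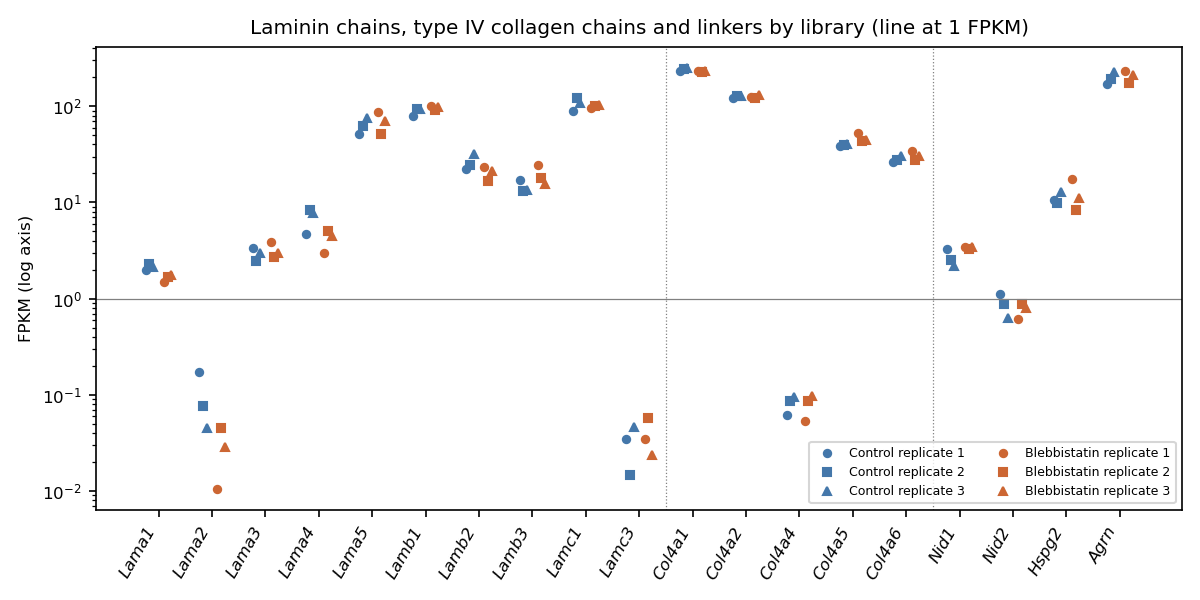
Each point is the FPKM of a gene in a library on a log axis, with controls in blue and treated libraries in orange, and Col4a3 is left out because it is listed at 0 in control replicate 1. Col4a1, Agrn, Col4a2, Lamc1, Lamb1 and Lama5 form the upper level, and Lama2, Lamc3 and Col4a4 lie well below the line at 1 FPKM in all 6 libraries.

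Type IV collagen chains summed to 418.4 to 446.9 FPKM in the controls and 421.9 to 443.4 in the treated libraries, within the control range. These chains assemble as trimers of alpha 1, alpha 1 and alpha 2, of alpha 3, alpha 4 and alpha 5, or of alpha 5, alpha 5 and alpha 6. The genes lie in 3 pairs whose starts face each other on opposite strands. In the deposited mm10 annotation, 2 bases separate the starts of Col4a1 and Col4a2 on chromosome 8, 71 bases those of Col4a4 and Col4a3 on chromosome 1, and 1342 bases those of Col4a6 and Col4a5 on chromosome X. The junction of the first pair and the 250 bases before the starts of the third pair are shown, since the values of both pairs are compared below. They are from RefSeq (GRCm38.p6) and written 5′ to 3′ along the gene, the junction along the plus strand. Capitals mark the bases between the starts in the junction, and elsewhere GGGCGG, the core of Sp sites, or the CCAAT box, on either strand.
Col4a1 and Col4a2 junction, chr8:11312813-11312842: ggcggcgtctccaaGGggaggaccctgcgg
Col4a6, minus strand, chrX:141474077-141474326: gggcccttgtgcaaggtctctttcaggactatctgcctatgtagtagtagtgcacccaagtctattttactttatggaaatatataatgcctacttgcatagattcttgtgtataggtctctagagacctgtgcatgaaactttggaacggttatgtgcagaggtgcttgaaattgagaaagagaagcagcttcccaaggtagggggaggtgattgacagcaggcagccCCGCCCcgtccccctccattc
Col4a5, plus strand, chrX:141475169-141475418: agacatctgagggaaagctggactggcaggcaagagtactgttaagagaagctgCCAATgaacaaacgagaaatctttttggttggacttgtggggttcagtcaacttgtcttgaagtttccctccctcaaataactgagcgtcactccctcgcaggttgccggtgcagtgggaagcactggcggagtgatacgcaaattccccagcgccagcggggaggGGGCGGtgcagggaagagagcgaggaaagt

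GGGCGG begins 30 bases before the start of Col4a5 and, on the reverse strand, 21 bases before that of Col4a6. It is found on either strand in 32.7% of 32851 promoter windows of the same length, and CCAAT in 33.8%. TATAAA, found in 12.4% of windows, and GGAATG (the core bound by TEAD factors), found in 12.6%, were in neither of these 2 windows.

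Col4a1 stood at 230.2, 241.0 and 249.4 FPKM in the controls and 231.2, 229.1 and 233.4 in the treated libraries (log2 fold change -0.05 ± 0.09, adjusted p = 0.987, limma). The 95% confidence interval of the difference ran from -0.26 to 0.15. Col4a2, which is named as the partner of Col4a1 outside the naming rule, stood at 122.9, 127.5 and 126.6 FPKM in the controls and 125.4, 121.9 and 130.9 in the treated libraries (log2 fold change 0.0039 ± 0.084, adjusted p = 0.999, 95% confidence interval -0.19 to 0.20). Both genes were thus nearly level over the 6 libraries, and the groups overlapped in each. The ratio of Col4a1 to Col4a2 FPKM was 1.91 ± 0.052 in the controls and 1.84 ± 0.049 in the treated libraries (SD, n = 3).

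Col4a5 had 38.6, 39.6 and 40.7 FPKM in the controls and 52.6, 43.1 and 44.6 in the treated libraries. All treated libraries lay above all controls, with blebbistatin replicate 1 standing apart (log2 fold change 0.23 ± 0.10, adjusted p = 0.521, limma). Without that library the log2 fold change was 0.14. Col4a6, its neighbour and partner chain, had 26.6, 27.8 and 30.2 FPKM in the controls and 34.1, 27.8 and 30.2 in the treated libraries. Blebbistatin replicates 2 and 3 lay within the controls or next to them (log2 fold change 0.12 ± 0.10, adjusted p = 0.911). The ratio of Col4a5 to Col4a6 was 1.45, 1.42 and 1.35 in the controls and 1.54, 1.55 and 1.48 in the treated libraries, without overlap. Of the other gene ratios taken, Lamb1 to Lamc1 and Nid1 to Nid2 did not overlap either. Those of Col4a1 to Col4a2, Lama5 to Lamc1 and Agrn to Hspg2 did overlap. How often ratios or shares of other genes part in this way was not counted. Col4a1 and Col4a2 together made up 84.1% to 84.5% of type IV collagen FPKM in the controls and 80.4% to 83.2% in the treated libraries. Col4a3 and Col4a4, chains best known from the kidney and inner ear, were at most at 0.00797 and 0.0977 FPKM. Over the 4 chains tested the median log2 fold change was 0.060, with 3 means higher, and it ran from 0.024 to 0.11 when 1 library was left out.

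Among the linkers, Agrn, the proteoglycan agrin that binds laminin and dystroglycan, was the most abundant. It stood at 171.3, 193.4 and 227.1 FPKM in the controls and 232.7, 174.8 and 213.3 in the treated libraries, with full overlap (log2 fold change 0.07 ± 0.15, adjusted p = 0.992, limma). Nid1, which binds laminin gamma 1 and type IV collagen, had 3.25, 2.52 and 2.19 FPKM in the controls and 3.43, 3.31 and 3.44 in the treated libraries. Every treated library lay above every control, narrowly so for control replicate 1 (log2 fold change 0.28 ± 0.12, adjusted p = 0.546). Hspg2, which encodes perlecan, ranged from 8.41 to 17.6 FPKM, both extremes being treated libraries. Nid2 lay between 0.615 and 1.12 FPKM and was not tested, and its exons overlap those of 2700060E02Rik on the opposite strand, so that fragments of both may be shared. The median log2 fold change of the 3 linkers tested was 0.11, with 3 means higher.

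**Figure D3:**
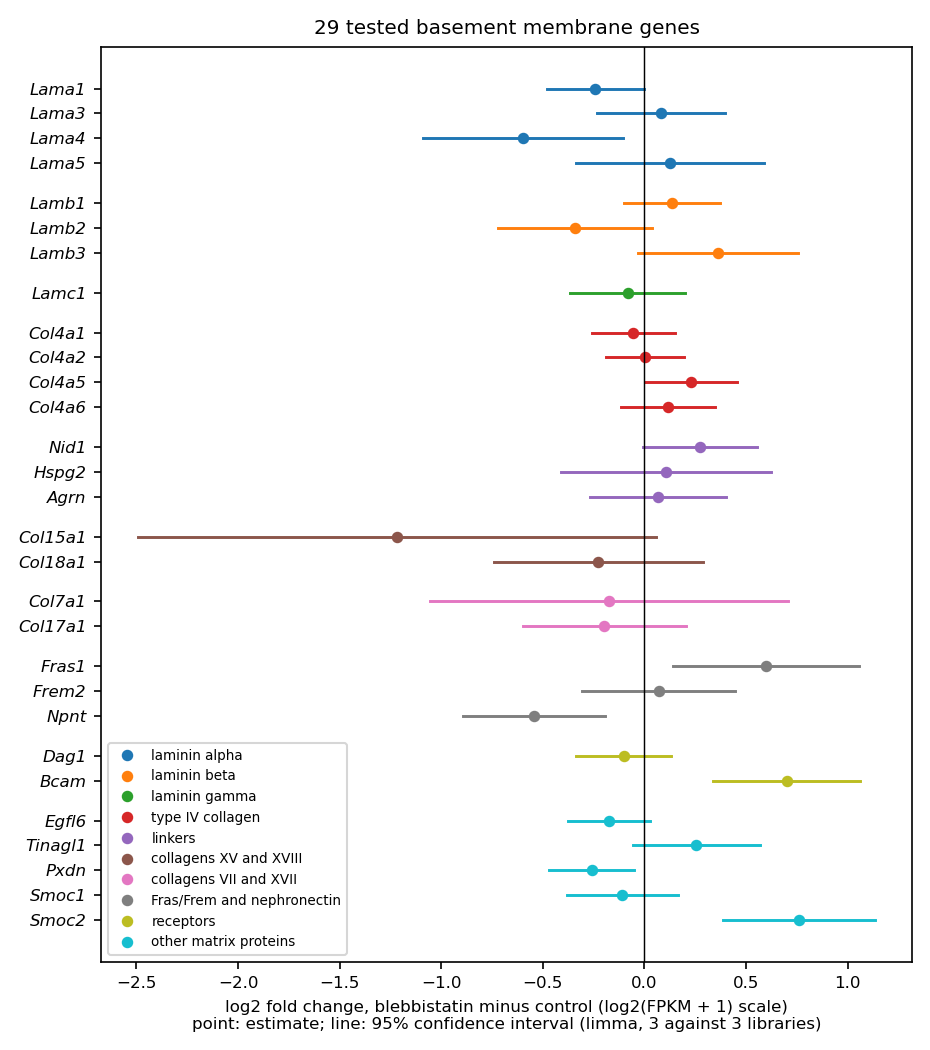
Points are log2 fold changes of the 29 tested genes, blebbistatin minus control, and lines are 95% confidence intervals from limma. Intervals of Smoc2, Bcam, Fras1 and Col4a5 lie above 0 and those of Npnt, Lama4, Pxdn and Lama1 below it, before any adjustment for the number of genes tested.

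Bcam, which binds laminin alpha 5, stood at 151.4, 112.9 and 125.0 FPKM in the controls and 255.6, 199.8 and 181.3 in the treated libraries. All treated libraries lay above all controls, and the ratio of means was 1.64 (log2 fold change 0.70 ± 0.16, adjusted p = 0.148, limma). Its ligand chain Lama5, given above, overlapped between the groups. The other receptor, Dag1, which encodes dystroglycan, had 150.3, 174.6 and 155.6 FPKM in the controls and 146.4, 160.2 and 140.8 in the treated libraries, with overlap (log2 fold change -0.10 ± 0.10, adjusted p = 0.945).

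The 250 bases before the start of Bcam are shown because it was the member with the smallest p that has a promoter entry. The sequence is from RefSeq (GRCm38.p6), 5′ to 3′ along the gene. It holds none of the motifs named above on either strand, so no base is in capitals.
Bcam, minus strand, chr7:19770533-19770782: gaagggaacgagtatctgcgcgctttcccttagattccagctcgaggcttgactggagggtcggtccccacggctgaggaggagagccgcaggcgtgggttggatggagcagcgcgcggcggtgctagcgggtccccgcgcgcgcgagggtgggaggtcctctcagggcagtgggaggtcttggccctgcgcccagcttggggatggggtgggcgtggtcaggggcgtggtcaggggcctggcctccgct

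Smoc2, a calcium-binding matrix protein related to SPARC, stood at 201.4, 140.3 and 200.8 FPKM in the controls and 326.9, 264.0 and 322.5 in the treated libraries. The groups lay well apart, with a ratio of means of 1.68, and Smoc2 had the smallest p of the 29 (log2 fold change 0.76 ± 0.16, adjusted p = 0.139, limma). Its relative Smoc1 was low in both groups, at 1.91, 1.69 and 1.73 FPKM in the controls and 1.84, 1.64 and 1.28 in the treated libraries, with overlap (log2 fold change -0.11 ± 0.12, adjusted p = 0.962).

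Pxdn encodes peroxidasin, the enzyme that makes the sulfilimine crosslinks between type IV collagen trimers. It stood at 92.4, 104.5 and 98.9 FPKM in the controls and 86.6, 81.8 and 77.99 in the treated libraries. Each treated library lay below each control, by a modest margin (log2 fold change -0.26 ± 0.09, adjusted p = 0.368, limma). Its substrate chains Col4a1 and Col4a2 overlapped between the groups. Egfl6, a ligand of integrin alpha 8 beta 1, had 5.43, 6.25 and 5.49 FPKM in the controls and 4.95, 5.01 and 4.89 in the treated libraries, again without overlap (log2 fold change -0.17 ± 0.09, adjusted p = 0.641). Tinagl1, a laminin-binding glycoprotein, had 64.1, 45.1 and 48.4 FPKM in the controls and 58.99, 66.2 and 61.5 in the treated libraries. Control replicate 1 lay within the treated range (log2 fold change 0.26 ± 0.14, adjusted p = 0.672).

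Npnt encodes nephronectin, another ligand of integrin alpha 8 beta 1. Its level was 9.18, 13.2 and 8.55 FPKM in the controls and 6.01, 7.08 and 6.86 in the treated libraries. The groups did not overlap, and control replicate 2 stood above the other controls (log2 fold change -0.54 ± 0.15, adjusted p = 0.230, limma). Without it the log2 fold change was -0.37. Fras1, which with Frem proteins forms the complex that holds epithelia to mesenchyme, had 1.91, 2.37 and 2.49 FPKM in the controls and 5.72, 2.76 and 3.69 in the treated libraries. There was no overlap, but blebbistatin replicate 1 stood far above the rest (log2 fold change 0.60 ± 0.20, adjusted p = 0.330), and without it the log2 fold change was 0.37. Frem2, its partner in that complex, had 11.6, 12.4 and 12.3 FPKM in the controls and 16.3, 9.53 and 13.3 in the treated libraries, which lay on both sides of the controls (log2 fold change 0.07 ± 0.16, adjusted p = 0.994). Frem1 lay between 0.204 and 0.910 FPKM and was not tested.

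**Figure D4:**
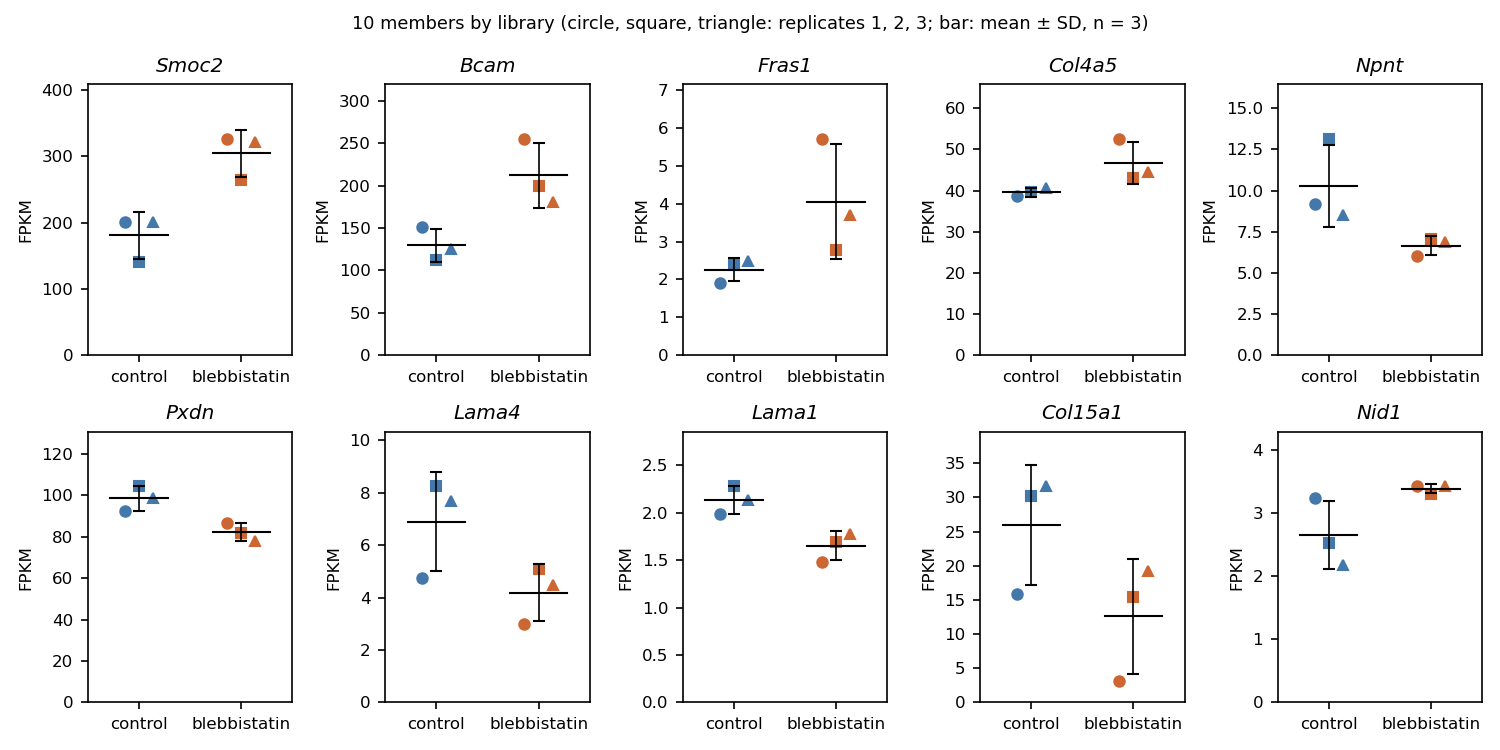
Each panel gives the FPKM of a gene in the 3 control (blue) and 3 treated (orange) libraries, with the mean and SD as bars and an axis from 0. The groups are apart in Smoc2, Bcam, Fras1, Col4a5, Npnt, Pxdn, Lama1 and Nid1, while Lama4 and Col15a1 overlap through the low values of control replicate 1.

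Col15a1 and Col18a1 encode the collagens whose C-terminal pieces are restin and endostatin. On the log2 scale Col15a1 had the largest fold change of the 29, and the largest SE. It stood at 15.9, 30.3 and 31.7 FPKM in the controls and at 3.11, 15.5 and 19.2 in the treated libraries. Blebbistatin replicate 1 was far below all others, and control replicate 1 fell among the treated libraries (log2 fold change -1.22 ± 0.55, adjusted p = 0.564, limma). Without blebbistatin replicate 1 the log2 fold change was -0.50. The mesenchymal and endothelial marker sums given above overlapped between the groups, and both were highest in control replicate 1. Their part in the levels of Col15a1 was not tested. Col18a1 had 41.6, 45.1 and 29.4 FPKM in the controls and 41.6, 34.8 and 23.4 in the treated libraries, with overlap (log2 fold change -0.23 ± 0.22, adjusted p = 0.944). In both groups replicate 3 was the lowest for Col18a1.

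Col18a1 has 2 annotated starts, and the sequences before them are shown because the transcripts that begin there had different levels. Capitals mark the Sp core, the CCAAT box or the TEAD core on either strand, in RefSeq sequence (GRCm38.p6) written 5′ to 3′ along the gene.
Upstream start, minus strand, chr10:77166531-77166780: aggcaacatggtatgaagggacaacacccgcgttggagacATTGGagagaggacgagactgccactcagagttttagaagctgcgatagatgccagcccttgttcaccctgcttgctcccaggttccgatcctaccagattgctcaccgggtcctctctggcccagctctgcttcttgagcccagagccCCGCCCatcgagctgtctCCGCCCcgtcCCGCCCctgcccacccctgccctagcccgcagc
Internal start, minus strand, chr10:77113706-77113955: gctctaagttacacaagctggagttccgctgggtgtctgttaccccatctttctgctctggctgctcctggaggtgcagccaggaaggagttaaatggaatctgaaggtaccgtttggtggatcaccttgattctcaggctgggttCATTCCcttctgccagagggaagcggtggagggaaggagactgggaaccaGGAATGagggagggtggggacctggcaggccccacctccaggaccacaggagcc

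The window of the upstream start holds the Sp core 3 times and 1 CCAAT box, and that of the internal start holds the TEAD core 2 times and neither of the other motifs. The transcript from the upstream start (NM_009929) made up 75.7%, 71.7% and 62.4% of Col18a1 FPKM in the controls and 70.8%, 62.8% and 53.4% in the treated libraries. The rest came from the internal start (NM_001109991). The shares overlapped between the groups and did not pass (adjusted p = 0.9996, limma on the arcsine square root scale).

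Over all 40 member transcripts tested, from 29 genes, 0 passed an adjusted p of 0.05 (limma), beside 0.00692% of the 14460 tested. At an unadjusted p under 0.05 there were 6, beside 8.08% of all transcripts tested. They were the single transcripts of Smoc2, Bcam, Pxdn, Fras1 and Lama4 and 1 transcript of Npnt (NM_001287103), which stood at 2.44, 4.21 and 2.60 FPKM in the controls and 1.53, 1.49 and 1.87 in the treated libraries, without overlap. Of 12 transcript shares tested in Npnt, Dag1, Col18a1, Col17a1 and Col4a5, 0 passed and 0 had an unadjusted p under 0.05, where 4.56% of all 4997 shares did. The smallest p was that of the same Npnt transcript, which made up 29.6% ± 2.78 of Npnt FPKM in the controls and 24.5% ± 3.19 in the treated libraries (SD, n = 3). The next was a Dag1 transcript (NM_001276482) at 39.7% ± 1.06 and 36.1% ± 3.21.

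Col17a1, the transmembrane collagen of hemidesmosomes, had 86.8, 57.02 and 59.8 FPKM in the controls and 68.6, 54.8 and 51.9 in the treated libraries. Replicate 1 was the highest in each group (log2 fold change -0.20 ± 0.17, adjusted p = 0.919, limma). Without control replicate 1 the log2 fold change was -0.010. Col7a1, the collagen of anchoring fibrils, ranged from 17.4 to 53.3 FPKM in the controls and from 19.5 to 37.3 in the treated libraries, with replicate 3 the highest in each group. An exon of Col7a1 overlaps Mir711 on the same strand.

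Individual libraries stood out across these genes. Blebbistatin replicate 1 had the highest value of the 6 libraries in 12 of the 29 tested genes, while it was the highest in 18.6% of all genes tested. The 12 were Lama3, Lama5, Lamb1, Lamb3, Col4a5, Col4a6, Hspg2, Agrn, Fras1, Frem2, Bcam and Smoc2. The same library had the lowest value in 4 of the 29 (Lama1, Lama4, Npnt and Col15a1), near its share of 14.7% over all genes tested. Leaving blebbistatin replicate 1 out turned the small positive log2 fold changes of Lama5, Agrn and Frem2 negative (-0.054, -0.021 and -0.094). It left those of Smoc2 and Bcam positive, Bcam at 0.56. Control replicate 2 was the highest in 8 of the 29, beside 18.6% of all genes tested, and control replicate 1 in 2, beside 27.0%.

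Receptors outside the 35 genes were given by a list of 24 integrin subunits, syndecans and other matrix receptors. Of 17 tested, 8 had higher and 9 had lower means, 0 passed an adjusted p of 0.05 (limma) and 6 had an unadjusted p under 0.05 (35.3%, beside 9.36% of all genes tested). Their median log2 fold change was -0.0027. The groups did not overlap in 7 of the 17 (41.2%, beside 14.3% of all genes tested), 3 of them higher and 4 lower. Itga8 encodes a subunit that pairs with beta 1 to bind nephronectin and EGFL6. It had 15.9, 18.5 and 15.8 FPKM in the controls and 13.1, 14.5 and 11.4 in the treated libraries (log2 fold change -0.34 ± 0.11, adjusted p = 0.310, limma). Itga8 was lower in every treated library, as 6.8% of all genes tested were. The genes of its ligands, Npnt and Egfl6, lay the same way, and a link between them was not tested. Itga9 had 55.3, 59.4 and 51.3 FPKM in the controls and 21.4, 34.9 and 38.8 in the treated libraries (adjusted p = 0.170). Itgb5 was lower in every treated library as well, and Itgb8 was higher, from 3.75 to 5.87 FPKM in the controls and from 6.75 to 8.16 in the treated libraries. The laminin receptor subunits Itga3 and Itga6, named after their values were seen, were higher in every treated library, at log2 fold changes of 0.22 ± 0.08 and 0.27 ± 0.12 (adjusted p = 0.390 and 0.575). Their beta partners Itgb1 and Itgb4 overlapped between the groups, at log2 fold changes of 0.05 ± 0.10 and 0.21 ± 0.14.

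Enzymes that fold, modify and crosslink these chains were given by a list of 31 genes. Of 27 tested, 11 had higher and 16 had lower means, and 0 passed (limma), while 4 had an unadjusted p under 0.05 (14.8%, beside 9.36% of all genes tested). The median of their log2 fold changes was -0.053. The groups did not overlap in 3 of the 27 (11.1%, beside 14.3% of all genes tested), all 3 of them lower. Plod1, a collagen lysyl hydroxylase, had 22.02, 28.7 and 29.2 FPKM in the controls and 7.98, 17.03 and 14.4 in the treated libraries, without overlap (log2 fold change -1.02 ± 0.24, adjusted p = 0.170). Leprel1, the prolyl hydroxylase that acts on type IV collagen, had 7.03, 9.47 and 6.96 FPKM in the controls and 2.80, 6.95 and 4.99 in the treated libraries (log2 fold change -0.63 ± 0.25, adjusted p = 0.452). As in Col15a1 and Lama4, blebbistatin replicate 1 was the lowest library in both. Leprel4 was lower in every treated library (log2 fold change -0.30 ± 0.11), and Loxl2, a crosslinking lysyl oxidase, had a log2 fold change of 0.54 ± 0.20 with overlap.

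Another list held 28 further basement membrane components, of which 26 were in the table and 12 were tested, 9 with higher means. Of the 12, 0 passed (limma) and 3 had an unadjusted p under 0.05 (25.0%, beside 9.36% of all genes tested), and the median log2 fold change was 0.19. The nearest to the threshold were Ntn1 and Egflam, both with an adjusted p of 0.0785. Ntn1 passed when libraries were given array weights (adjusted p = 0.0437). Ntn1, the laminin-related netrin 1, had 1.16, 0.915 and 0.863 FPKM in the controls and 3.97, 2.48 and 2.41 in the treated libraries (log2 fold change 0.98 ± 0.16). Its control mean was 0.980 FPKM, so Ntn1 met the filter on a mean of 1 FPKM only through its treated values. Egflam, which encodes the dystroglycan ligand pikachurin, had 3.62, 4.18 and 3.46 FPKM in the controls and 1.87, 2.28 and 1.75 in the treated libraries (log2 fold change -0.68 ± 0.11). In both the groups lay well apart. Over the 12 tested, the groups did not overlap in 3 (25.0%, beside 14.3% of all genes tested), 2 of them higher and 1 lower. Fbln1 was higher in every treated library (log2 fold change 0.19 ± 0.09), and Matn2 had a log2 fold change of 0.60 ± 0.26 with overlap.

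On mm10, as annotated in the deposited file, Smoc2 lies at chr17:14279506-14404790, Bcam at chr7:19756138-19770532, Npnt at chr3:132881745-132950291 and Fras1 at chr5:96373955-96784728. Pxdn lies at chr12:29938036-30017658, Lama4 at chr10:38965515-39110188, Lama1 at chr17:67697265-67822645, Lama5 at chr2:180176373-180225859 and Col15a1 at chr4:47208012-47313165. Col4a1 and Col4a2 lie at chr8:11198423-11312826 and chr8:11312829-11449287, and Col4a6 and Col4a5 at chrX:141165403-141474076 and chrX:141475419-141689235. In that annotation their exons are free of overlap with other genes. The values cover all exons of a gene together.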

How the data were processed

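RNA was extracted with the RNAeasy kit and made into Illumina TruSeq RNA libraries, per the labels' protocols. The sources used here do not say whether counting used strand. The submitters' processing notes name TopHat2 2.0.13, Bowtie2 2.2.3, Cufflinks 2.2.1 and mm10. Both deposited tables, of genes and of transcripts, give FPKM as the authors computed it, per the file headers, beside the RefSeq annotation they used. BB in a column name was read as blebbistatin, and a name with no number as replicate 1. Of 24067 genes, the 11540 with a mean of at least 1 FPKM were tested as log2(FPKM + 1), a pseudocount of 1, with limma 3.58.1 in R 4.3.3 (mean-variance trend, group as the only term, two-sided, Benjamini-Hochberg adjustment over all genes tested, threshold 0.05). A filter on the mean keeps genes that are high in 1 group only. Transcripts with a mean of at least 1 FPKM were tested likewise, and transcript shares on the arcsine square root scale for mean shares from 0.05 to 0.95 in genes whose transcripts summed to 5 FPKM or more on average. The code was tested on simulated data. Means are given with SD (n = 3) and fold changes with SE. Depth was estimated from low FPKM values of genes with 1 transcript, where 83.7% to 85.4% of values came within 0.1 of a whole number of fragments. The genes described and the lists were chosen with earlier results of these data known. Values in every library are given for the 20 tested genes of smallest p and the most abundant of each class, and from each further list up to 4 genes of smallest p. Of transcripts and shares, those of smallest p are named. Promoter entries were found for 25 of the 35 genes.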

Additional observations from a re-analysis of the deposited data

How the results depend on the processing

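None of the tested members passed under any of 13 alternatives, and 3 did (Smoc2, Bcam and Lama4, adjusted p = 0.0338, 0.0357 and 0.0357, limma) with the replicate number as a block. Of the 3 further lists, Ntn1 alone passed under those 13, with array weights. With the block Ntn1, Egflam, Itgb3, Loxl2 and Plod1 passed. The labels state no such pairing, and the deviations of same-numbered libraries correlated at 0.182, 0.094 and 0.253, each library best with its own number. With the replicate block 144 genes passed in all, beside 9 without it, and no member transcript or share did. In place of 9, 1 gene passed when low genes were kept, 27 when at least 5 FPKM was asked for, 14 when libraries were quantile normalized and 2 when they were rescaled by median of ratios. Array weights gave 57, removal of the length trend 18, and leaving out 1 library 1 to 13. The cause was not tested. With array weights the median log2 fold change was -0.088 over the tested members, -0.11 over laminin chains and -0.069 over linkers. Leaving out 1 library gave -0.054 to 0.083, -0.10 to 0.034 and -0.021 to 0.29 for these. Of 25 genes followed, 20 kept their direction under all alternatives that tested them. With array weights Lama5 had a log2 fold change of -0.088, Agrn -0.069 and Frem2 -0.059. With 1 library left out Lama5 ran from -0.054 to 0.32, Agrn from -0.028 to 0.18, Frem2 from -0.094 to 0.26, Lamc1 from -0.20 to 0.025 and Col18a1 from -0.41 to 0.00011. The 6 members with a mean under 1 FPKM were tested only when low genes were kept.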
